A study of Rattus norvegicus with 24 samples.

Results

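The protein tyrosine phosphatase genes named Ptpr, Ptpn and Dusp were examined in the dentate gyrus of young and aged rats. Members were the probe sets whose single annotated symbol begins with Ptpr and a letter, Ptpn and a number or Dusp and a number, with 1 gene left out. They comprised 89 probe sets for 55 genes, out of 14217 genes with a single symbol on the array. Each gene was represented by its probe set with the highest mean.

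RNA of dentate gyri that had been dissected from the hippocampus of male Long-Evans rats was measured on Affymetrix expression arrays, 1 animal to an array by the labels. The groups were 7 aged rats with impaired spatial learning, 6 aged rats with unimpaired spatial learning and 8 young rats. Aged rats were 24 to 26 months old and young rats 6 months old, no group was treated, and aged rats were divided by how well they learned the Morris water maze, a swimming task with a hidden platform. All rats had been tested in the maze, 2 weeks before the tissue was taken.

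Protein tyrosine phosphatases remove phosphate from tyrosine residues and so oppose the tyrosine kinases. Receptor-type members (Ptpr) span the membrane, and several bind adhesion molecules or matrix proteoglycans at synapses and on glia. Non-receptor members (Ptpn) act inside the cell, and many dual specificity members (Dusp) remove phosphate from both threonine and tyrosine of MAP kinases, which they switch off after a stimulus.

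Ptpro and Ptprn2 were the members whose differences between aged and young rats passed the test, and their promoters are shown to place those results in the genome. The windows run from 250 bases before to 50 bases after the annotated start, 5′ to 3′ on the strand of the gene, from RefSeq on the GRCr8 assembly. Ptpro lies on the plus strand at chr4:171895261-171895560 and Ptprn2 on the plus strand at chr6:143582318-143582617. Capitals mark the GC box, GGGCGG or its complement CCGCCC.
Ptpro: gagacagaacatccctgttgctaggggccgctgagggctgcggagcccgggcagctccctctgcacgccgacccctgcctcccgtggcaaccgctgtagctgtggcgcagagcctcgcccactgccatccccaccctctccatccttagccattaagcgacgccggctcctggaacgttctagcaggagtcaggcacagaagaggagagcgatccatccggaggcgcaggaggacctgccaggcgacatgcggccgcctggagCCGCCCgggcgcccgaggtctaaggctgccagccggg
Ptprn2: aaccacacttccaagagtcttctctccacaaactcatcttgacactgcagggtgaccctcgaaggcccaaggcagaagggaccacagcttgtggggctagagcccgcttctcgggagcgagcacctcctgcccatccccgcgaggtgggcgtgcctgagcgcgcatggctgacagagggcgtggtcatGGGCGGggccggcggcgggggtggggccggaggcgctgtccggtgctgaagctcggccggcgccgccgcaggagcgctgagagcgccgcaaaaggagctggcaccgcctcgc
The Ptpro window was 68.7% G and C with 24 CpG dinucleotides, and the Ptprn2 window was 69% G and C with 27. The medians over 33469 rat promoter windows of this length were 51.7% and 7. Each of the windows held 1 GC box, and neither held the cyclic AMP response element TGACGTCA or the shorter TGACG on either strand, the second of which is contained in the first. The GC box stood in 25 of the 35 windows that matched a measured member, against 33.1% of all windows. The full element stood in 3 of the 35 against 1.83% of all windows, and TGACG in 12 of the 35 against 21.2%. These sets are unlike, since the 35 belong to genes measured here and the others were not chosen by level. No set matched for level or for G and C was drawn.

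Of the 55 genes, 37 were measured, which here means a log2 value above 4 on at least 6 of the 21 arrays, and 36 of these exceeded 4 on every array. Dusp23 did so on 20. The measured genes were 16 of 21 receptor-type, 10 of 15 non-receptor and 11 of 19 dual specificity genes. The receptor-type genes not measured were Ptprc, the leukocyte antigen CD45, with Ptprh, Ptprq, Ptprv and Ptprcap, the last of which encodes a protein that associates with CD45 and is no phosphatase itself. Ptpn6, Ptpn7 and Ptpn22, phosphatases of blood cells, were not measured either, nor were Ptpn13 and Ptpn21. Among dual specificity genes, Dusp2, Dusp4, Dusp5, Dusp9, Dusp10, Dusp12, Dusp13b and Dusp19 were not measured. Just outside the limit was Dusp2, with a mean of 3.96 and 3 arrays above 4, and just inside were Dusp23, with a mean of 4.52, and Ptpn14, with a mean of 4.66. Within groups the SD of a measured member had a median of 0.142, close to the 0.135 of all tested probe sets, and reached 0.449 in Ptpro, the most variable member.

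Array medians lay between 3.77 and 3.84, and mean correlations across probe sets with the other arrays of a group were 0.989 to 0.992. Of 6 dentate granule neuron markers on the array 5 were measured, among them Prox1, with means of 10.8 in each of the 3 groups. The median array mean of these markers was 9.96 in aged impaired, 9.94 in aged unimpaired and 9.83 in young rats. Markers of CA1 and CA3 pyramidal neurons were measured too, 6 of 7 and 0 passing, at 7.38 to 8.09, 7.45 to 8.01 and 7.45 to 8.34 in the same groups. Pdyn, 1 of the 5 granule neuron markers, passed higher than in young rats at 0.36 ± 0.08 in impaired, 0.37 ± 0.08 in unimpaired and 0.36 ± 0.07 in all aged rats. The 5 markers had 2 negative and 3 positive differences in each of these comparisons. Of all tested probe sets 0.514% passed in either direction in impaired, 0.198% higher in unimpaired and 0.402% higher in all aged rats. Wfs1 had the smallest p of the pyramidal markers over all aged rats, at -0.65 ± 0.38. Young replicate 9 stands among the unimpaired arrays in the order of the series, while its title and stated age are those of a young rat, and it was taken as young. Earlier results of these data set apart 4 arrays with high meningeal markers, aged impaired replicates 2, 3 and 7 and young replicate 5. For members and for Ptn, Mapk4, Ptp4a1 and Tek, described below, results that change without them are given both ways. Calls on the other listed genes are given with all arrays only. Over all probe sets, calls in impaired against young rats were 47 higher and 31 lower, and 16 and 13 without the 4 arrays. The 37 members were read from a fit over 15177 probe sets. A member passed at an adjusted p below 0.05, and differences are log2 values ± the moderated standard error.

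Ptpro was lower in aged unimpaired than in young rats and in all aged rats together than in young rats. Ptprn2 was lower in aged unimpaired than in young rats. These were 2 of 37 members in the unimpaired comparison, where 0.936% of all tested probe sets passed lower and 0.198% higher, and 1 of 37 over all aged rats, where 0.705% passed lower and 0.402% higher. No member passed in aged impaired against young rats, where 0.514% of all probe sets passed and the smallest adjusted p of a member was 0.0635. No member passed between aged impaired and aged unimpaired rats, where 0% of all probe sets passed in the limma fit and 14.5% had an unadjusted p below 0.05. The comparisons with young rats share the same 8 young arrays.

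Ptpro encodes a receptor-type phosphatase first known from the podocytes of the kidney, where it is also called GLEPP1, and its protein dephosphorylates Eph receptors, as shown in chick retina. In aged impaired rats its log2 values were 6.17 in replicate 3, 6.21 in replicate 8, 6.59 in replicate 7, 6.72 in replicate 2, 6.90 in replicate 6, 6.96 in replicate 4 and 7.08 in replicate 1. In aged unimpaired rats they were 5.35 in replicate 8, 6.33 in replicate 6, 6.73 in replicate 3, 6.75 in replicate 7, 6.76 in replicate 4 and 6.94 in replicate 1. In young rats they were 6.99 in replicate 5, 7.22 in replicate 4, 7.33 in replicate 1, 7.47 in replicate 2, 7.65 in replicate 7, 7.68 in replicate 3, 8.03 in replicate 9 and 8.17 in replicate 6. Every unimpaired array lay below every young array, and among impaired arrays only replicate 1 lay above the lowest young one. Of all tested probe sets, 0.843% were lower without overlap in unimpaired rats.

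Mean Ptpro was 6.66 ± 0.36 in aged impaired rats (SD, n = 7), 6.48 ± 0.59 in aged unimpaired rats (SD, n = 6) and 7.57 ± 0.40 in young rats (SD, n = 8). Over all aged rats Ptpro was 2.00-fold lower than in young rats, a log2 difference of -0.997 ± 0.19 (limma adjusted p = 0.0121), with 13 of 13 aged arrays below the young mean. It ranked 42 by p and 17 by size of difference among the 15177 probe sets. In aged unimpaired rats it was 2.13-fold lower than in young rats, at -1.09 ± 0.23 (limma adjusted p = 0.0261) and 6 of 6 arrays below the young mean. This call was lost without young replicate 6, at -1.003 (limma adjusted p = 0.0515), and without young replicate 9, at -1.02 (limma adjusted p = 0.0539). In aged impaired rats the difference from young rats was -0.91 ± 0.22 with 7 of 7 arrays below the young mean, and missed the threshold (limma adjusted p = 0.0635). It passed without young replicate 5, at -0.99 (limma adjusted p = 0.0314), and without aged unimpaired replicate 8, at -0.91 (limma adjusted p = 0.0174). It also passed with arrays centred on their medians, at -0.91 (limma adjusted p = 0.0463).

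Between aged impaired and aged unimpaired rats the Ptpro difference was 0.18 ± 0.23, with a 95% interval of -0.30 to 0.67 (limma adjusted p = 0.743). Unimpaired replicate 8 was the lowest of all arrays, and without it this difference was -0.042. Taken as a single gene, Ptpro gave two-sided exact permutation p values of 0.000622 for impaired against young, 0.000666 for unimpaired against young, the smallest this design allows, 1.97e-05 for all aged against young and 0.543 for impaired against unimpaired rats. Adjusted over these 4 tests they were 0.000888, 0.000888, 7.86e-05 and 0.543. Ptpro was singled out with its earlier result known, so these p values describe the separation of the arrays and are not independent evidence. Only 1 probe set represented Ptpro on the array. In bulk tissue, fewer cells of a type and less RNA per cell cannot be told apart.

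Ptprn2 encodes phogrin, a membrane protein of dense-core vesicles that is related to Ptprn (IA-2) and has little activity on the usual phosphotyrosine substrates. Its lowest, median and highest log2 values were 8.28, 8.43 and 8.48 in aged impaired rats, 8.00, 8.16 and 8.21 in aged unimpaired rats and 8.29, 8.43 and 8.68 in young rats. The unimpaired arrays all lay below every array of the other groups, while impaired and young arrays overlapped through most of their range. In aged unimpaired rats Ptprn2 was 1.23-fold lower than in young rats, at -0.29 ± 0.05 (limma adjusted p = 0.0129), with 6 of 6 arrays below the young mean. Impaired rats differed from young rats by -0.03 ± 0.05 (limma adjusted p = 0.885), with a 95% interval of -0.14 to 0.08. Impaired minus unimpaired rats gave 0.27 ± 0.06 with 7 of 7 arrays above the unimpaired mean. This did not pass (limma adjusted p = 0.129, range 0.0810 to 0.272 over the alternatives), although it ranked 9 of 15177 by p, and 0.988% of all probe sets were higher without overlap in this comparison. Ptprn, the related vesicle protein, differed from young rats by 0.12 ± 0.08 in impaired and 0.06 ± 0.08 in unimpaired rats, and neither passed.

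**Figure D1:**
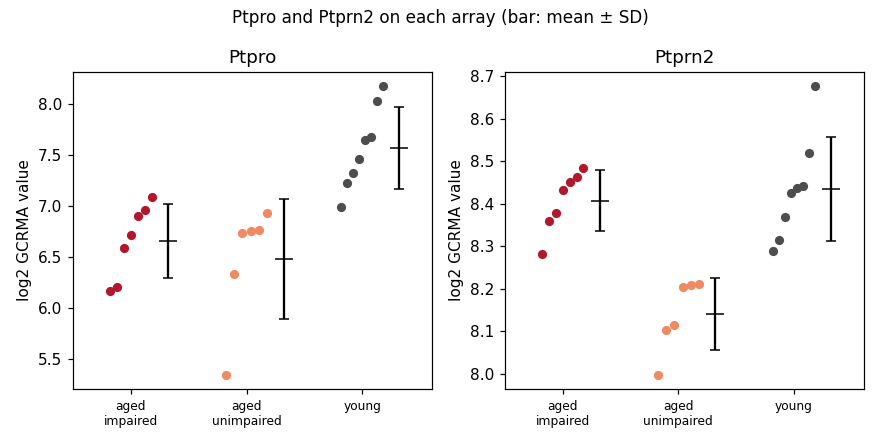
Log2 GCRMA values (y axis) of Ptpro and Ptprn2 on each array in aged impaired, aged unimpaired and young rats (x axis), with 1 point per array and bars for mean ± SD. All 6 unimpaired arrays lie below all 8 young arrays in both panels, and the impaired arrays stand with the unimpaired ones for Ptpro and among the young ones for Ptprn2.

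The other receptor-type members did not pass. In aged unimpaired against young rats 13 of 16 receptor-type genes had negative differences, with a median of -0.18, where 66.0% of all tested probe sets were negative with a median of -0.04. In aged impaired against young rats 11 of 16 were negative with a median of -0.03, where 44.8% of all probe sets were negative with a median of 0.01. Impaired minus unimpaired differences were positive in 16 of 16 receptor-type genes, with a median of 0.13, where 27.6% of all probe sets were negative and the median was 0.05. The count of 16 fell to 11 with arrays centred on their medians and to 9 after quantile normalization.

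Ptprb, the endothelial phosphatase VE-PTP that acts on the Tie2 receptor, had lowest, median and highest values of 7.53, 7.96 and 8.24 in aged impaired, 7.33, 7.41 and 7.77 in aged unimpaired and 7.67, 7.84 and 8.07 in young rats. The unimpaired arrays were the low ones, with some overlap of both other groups. Ptprb differed by -0.39 ± 0.10 in unimpaired against young rats (limma adjusted p = 0.0670, 6 of 6 arrays), and the difference passed without aged impaired replicate 6 (limma adjusted p = 0.0454). Impaired minus unimpaired rats gave 0.44 ± 0.11 (limma adjusted p = 0.134), which was 0.27 without the 4 meningeal-high arrays (limma adjusted p = 0.367). With arrays centred on their medians, Ptprb gave -0.34 for unimpaired minus young rats (limma adjusted p = 0.115). It then gave 0.38 for impaired minus unimpaired rats (limma adjusted p = 0.240). A second Ptprb probe set gave 0.20 ± 0.14 for impaired minus unimpaired rats.

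Tek, which encodes Tie2 and is no member, was lower in unimpaired than in young rats by -0.51 ± 0.09 (limma adjusted p = 0.0102, 6 of 6 arrays). Of 10 endothelial markers on the array 9 were measured, and Tek, Slco1c1 and Slco1a4 were the 3 that passed lower in unimpaired than in young rats. In this comparison 0.936% of all tested probe sets passed lower. Slco1c1 also passed lower in impaired rats, at -0.55 ± 0.06, and over all aged rats, at -0.53 ± 0.06. Of all tested probe sets 0.514% passed in either direction in impaired rats and 0.705% passed lower over all aged rats. Of the 9 endothelial markers 4 were negative and 5 positive in impaired against young rats, with a median of 0.0003. In unimpaired and in all aged rats 7 of the 9 were negative, with medians of -0.16 and -0.08. The array mean of the endothelial markers ranged from 6.76 to 7.26 in aged impaired, 6.66 to 6.83 in aged unimpaired and 6.80 to 7.10 in young rats, and their summed level from 11.1 to 11.5, 11.1 to 11.2 and 11.2 to 11.6 on the log2 scale. The part of these markers in the Ptprb values was not tested.

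Ptprz1, a receptor of glia and their precursors that binds pleiotrophin, had lowest, median and highest values of 10.77, 10.92 and 11.12 in aged impaired, 10.62, 10.72 and 10.78 in aged unimpaired and 10.70, 10.93 and 11.17 in young rats. Unimpaired arrays were low again, and impaired and young arrays covered the same range. The unimpaired minus young difference was -0.23 ± 0.06 (limma adjusted p = 0.0718, 6 of 6 arrays) and passed without young replicate 1, at -0.26 (limma adjusted p = 0.0264). Impaired minus unimpaired rats gave 0.23 ± 0.06 (limma adjusted p = 0.165). With arrays centred on their medians, unimpaired minus young rats gave -0.17 (limma adjusted p = 0.174). Impaired minus unimpaired rats then gave 0.17 (limma adjusted p = 0.387). A second Ptprz1 probe set gave -0.21 ± 0.06 for unimpaired minus young and 0.098 ± 0.065 for impaired minus unimpaired rats (limma adjusted p = 0.110 and 0.496).

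The oligodendrocyte precursor markers, 5 of 7 measured with Cspg4 and Olig2 not, had array means of 8.46 to 8.74 in aged impaired, 8.30 to 8.53 in aged unimpaired and 8.48 to 8.94 in young rats. Their summed level was 11.5 to 11.8, 11.5 to 11.8 and 11.7 to 12.0 in the same groups. Pdgfra, the receptor that marks these cells, was lower in unimpaired than in young rats by -0.34 ± 0.07 (limma adjusted p = 0.0344, 6 of 6 arrays). In this comparison 0.936% of all tested probe sets passed lower and 66.0% of differences were negative. The part of oligodendrocyte precursors in the Ptprz1 values was not tested.

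Ptprm, which binds its own kind on neighbouring cells, had values of 5.99, 6.40 and 6.59 in aged impaired, 5.77, 5.84 and 6.05 in aged unimpaired and 5.80, 6.01 and 6.63 in young rats. Impaired and unimpaired arrays overlapped only at the edge, and the young arrays spanned both. Impaired minus unimpaired rats gave 0.42 ± 0.13 (limma adjusted p = 0.181, 7 of 7 arrays), against 0.28 without the 4 meningeal-high arrays. Ptprm differed by 0.22 ± 0.12 in impaired and -0.19 ± 0.12 in unimpaired rats against young rats.

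Ptprdl had values of 5.49, 5.78 and 6.09 in aged impaired, 5.04, 5.50 and 6.04 in aged unimpaired and 5.72, 6.00 and 6.15 in young rats. The groups overlapped, with the lowest values in unimpaired rats. The unimpaired minus young difference was -0.44 ± 0.12 (limma adjusted p = 0.0725) and passed without aged unimpaired replicate 7, at -0.55 (limma adjusted p = 0.0212). Ptprr, which removes phosphate from the kinase ERK in neurons, had values of 8.46, 8.57 and 8.91 in aged impaired, 8.44, 8.51 and 8.69 in aged unimpaired and 8.63, 8.67 and 8.87 in young rats. Its all aged minus young difference was -0.14 ± 0.05 (limma adjusted p = 0.210), with 12 of 13 arrays below the young mean.

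Ptprd, Ptprs and Ptprf, the LAR family that organises synapses from the axonal side, differed by -0.19 ± 0.07, -0.08 ± 0.06 and -0.14 ± 0.08 in unimpaired against young rats, and none passed. A second Ptprf probe set had the opposite sign, at 0.11 ± 0.07. Over the genes with more than 1 measured probe set, 15 pairs could be compared, and 5 pairs had opposite signs in impaired against young, 5 in unimpaired against young, 4 in all aged against young and 3 in impaired against unimpaired rats.

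**Figure D2:**
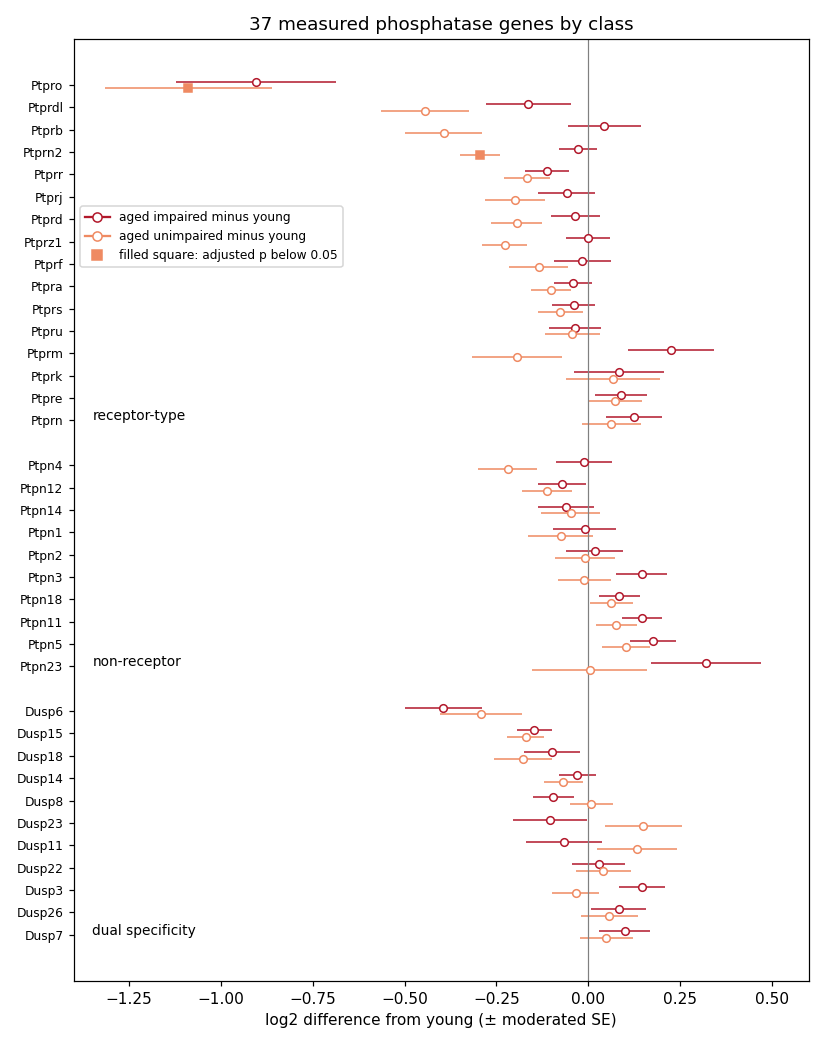
Log2 differences from young rats (x axis, ± moderated standard error) of the 37 measured phosphatase genes (y axis) in aged impaired and aged unimpaired rats, grouped by class. Filled squares passed at an adjusted p below 0.05, which in these comparisons were Ptpro and Ptprn2 in unimpaired rats, and most other members lie within 0.2 of 0.

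Ptprj, a receptor-type phosphatase of many cell types, had a second measured probe set that split the arrays. On this probe set, 8 arrays lay between 5.48 and 6.98 and 13 arrays between 8.64 and 9.97, with none in between. The low arrays were 3 of 7 aged impaired, 1 of 6 aged unimpaired and 4 of 8 young arrays. On the representative probe set all 21 arrays lay between 9.62 and 10.3, with a median of 10.1 in both sets of arrays. The gap was singled out after its values were seen, and the group differences of the second probe set were -0.45 ± 0.71 in impaired and 0.14 ± 0.74 in unimpaired against young rats, neither of which passed (limma adjusted p = 0.852 and 0.945).

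**Figure D3:**
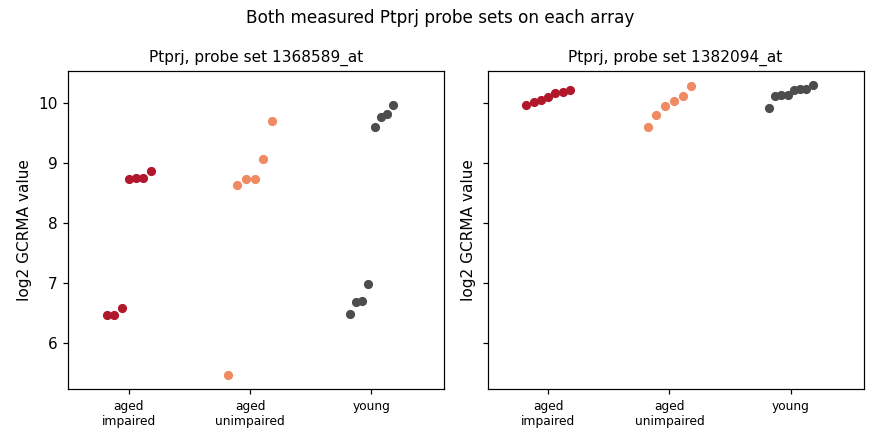
Log2 GCRMA values (y axis) of both measured Ptprj probe sets on each array (1 point each) in aged impaired, aged unimpaired and young rats (x axis). The second probe set (left) falls into 8 arrays at or below 6.98 and 13 at or above 8.64 across all groups, while the representative one (right) stays between 9.62 and 10.3.

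No non-receptor member passed in any comparison. The impaired minus young differences of the 10 genes ran from -0.07 to 0.32, and 6 were positive. Ptpn5, the striatal-enriched phosphatase STEP, which acts on ERK, Fyn and NMDA receptors, had values of 9.96, 10.03 and 10.20 in aged impaired, 9.88, 9.99 and 10.17 in aged unimpaired and 9.60, 9.94 and 10.08 in young rats. The groups overlapped, with the lowest values in young rats. Impaired minus young rats gave 0.18 ± 0.06 (limma adjusted p = 0.221, 7 of 7 arrays).

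Ptpn11, the phosphatase SHP2, which promotes signalling through Ras to ERK, had values of 10.66, 10.87 and 10.996 in aged impaired, 10.69, 10.76 and 10.82 in aged unimpaired and 10.55, 10.68 and 10.81 in young rats. The difference of impaired from young rats was 0.15 ± 0.05 (limma adjusted p = 0.245), with overlap. Ptpn4, a phosphatase with FERM and PDZ domains, had values of 8.75, 8.79 and 9.19 in aged impaired, 8.57, 8.65 and 8.79 in aged unimpaired and 8.64, 8.91 and 9.22 in young rats. Impaired and unimpaired arrays overlapped little, at 0.21 ± 0.08 (limma adjusted p = 0.257, 7 of 7 arrays). This difference fell to 0.15 with arrays centred on their medians (limma adjusted p = 0.511). The largest non-receptor difference, Ptpn23 in impaired against young rats at 0.32 ± 0.15, had 5 of 7 arrays above the young mean.

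No dual specificity member passed in the main analysis. Dusp6, a cytoplasmic phosphatase of ERK whose own transcription follows ERK activity, had values of 7.53, 7.92 and 8.23 in aged impaired, 7.83, 7.97 and 8.47 in aged unimpaired and 7.85, 8.39 and 8.48 in young rats. Most aged arrays lay below most young arrays, with young replicate 5 among the aged values. The difference from young rats was -0.39 ± 0.11 in impaired rats (limma adjusted p = 0.102, 7 of 7 arrays), -0.29 ± 0.11 in unimpaired rats (limma adjusted p = 0.184, 5 of 6 arrays) and -0.34 ± 0.09 in all aged rats (limma adjusted p = 0.0774, 12 of 13 arrays).

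The call on Dusp6 turned on single arrays and on the weighting of arrays. With array weights, which left no array out, it passed at -0.37 over all aged rats (limma adjusted p = 0.0347). Without young replicate 5 it passed at -0.41 over all aged rats (limma adjusted p = 0.0153) and at -0.46 in impaired rats (limma adjusted p = 0.0199). Without aged unimpaired replicate 4 it passed at -0.39 over all aged rats (limma adjusted p = 0.0287), and without the 4 meningeal-high arrays at -0.43 (limma adjusted p = 0.0469). The other measured Dusp6 probe sets gave -0.32 ± 0.09 and -0.12 ± 0.07 over all aged rats.

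Dusp15, which takes part in oligodendrocyte differentiation in rodents, had values of 7.99, 8.15 and 8.27 in aged impaired, 8.03, 8.11 and 8.16 in aged unimpaired and 8.13, 8.30 and 8.40 in young rats. All 13 aged arrays lay below the young mean, with overlap of the ranges, at -0.16 ± 0.04 over all aged rats (limma adjusted p = 0.0774). Without young replicate 5 it passed at -0.18 (limma adjusted p = 0.0364). The oligodendrocyte markers, 10 of 11 measured, had array means of 9.06 to 9.55 in aged impaired, 8.70 to 9.23 in aged unimpaired and 9.25 to 9.58 in young rats and summed levels of 14.2 to 14.7, 14.3 to 14.5 and 14.4 to 14.6. Differences from young rats were negative in 5 of 10 of these markers in impaired, 10 of 10 in unimpaired and 9 of 10 in all aged rats. Over all tested probe sets 44.8%, 66.0% and 56.8% were negative in the same comparisons. Cldn11, Mal and Ugt8 were the 3 that passed lower, at -0.64 ± 0.10, -0.63 ± 0.11 and -0.91 ± 0.21 in unimpaired and -0.43 ± 0.09, -0.48 ± 0.09 and -0.78 ± 0.17 in all aged rats. Beside them, 0.936% of all tested probe sets passed lower in unimpaired and 0.705% in all aged rats. The part of the oligodendrocyte markers in the Dusp15 values was not tested.

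Dusp3, the phosphatase VHR, had values of 10.96, 11.16 and 11.26 in aged impaired, 10.84, 10.98 and 11.07 in aged unimpaired and 10.82, 10.98 and 11.21 in young rats. Impaired minus unimpaired rats gave 0.18 ± 0.07 (limma adjusted p = 0.235), and a second probe set gave the opposite sign at -0.06 ± 0.13. The first fell to 0.12 with median centring (limma adjusted p = 0.555) and to 0.11 after quantile normalization (limma adjusted p = 0.540). Counted over all 3 classes, 8 of 37 members had an unadjusted p below 0.05 in impaired against young rats (12.4% of all probe sets). The count was 12 in unimpaired against young (17% of all) and 10 in all aged against young rats (14.6% of all). It was 10 in impaired against unimpaired rats (14.5% of all). Member differences lay within 0.2 of 0 in 33, 30, 34 and 29 of 37 in these comparisons. The same count over all probe sets was not made.

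**Figure D4:**
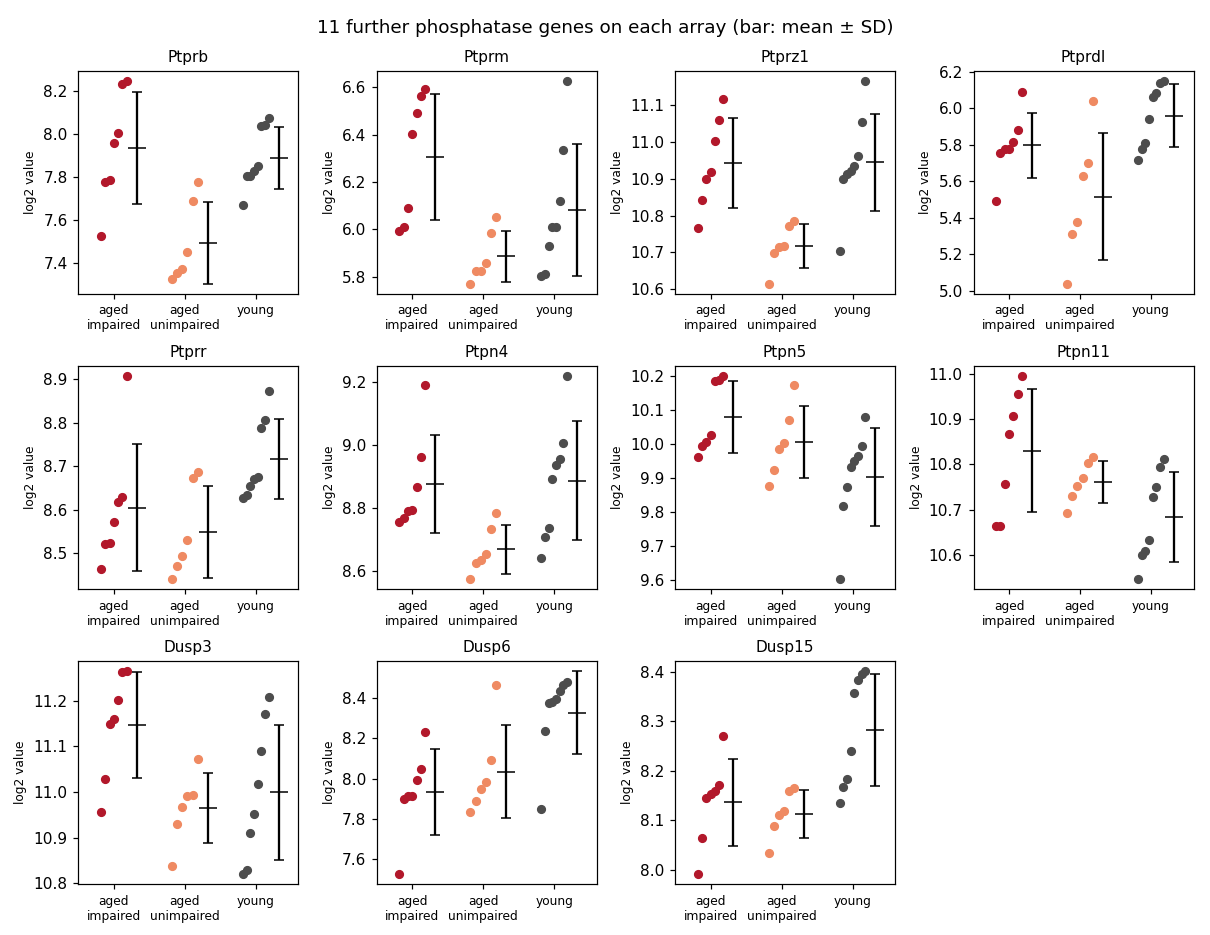
Log2 GCRMA values (y axis) on each array (1 point each) of the described phosphatase genes in aged impaired, aged unimpaired and young rats (x axis), with bars for mean ± SD. Ptprb and Ptprz1 show low unimpaired arrays, Dusp6 and Dusp15 low arrays in both aged groups, and Ptpn5 and Ptpn11 small shifts that overlap the young arrays.

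Genes that work with these phosphatases were read from the same fit. In unimpaired against young rats 0.936% of all tested probe sets passed lower and 0.198% higher. Over all aged rats 0.705% passed lower and 0.402% higher, and in impaired against young rats 0.514% passed in either direction. Of 19 measured ligands and binding partners of receptor-type members, pleiotrophin (Ptn), the ligand of Ptprz1, was the 1 that passed. Its values were 10.89, 11.17 and 11.44 in aged impaired, 10.60, 10.89 and 11.07 in aged unimpaired and 11.12, 11.33 and 11.67 in young rats. Every unimpaired array lay below every young array. Ptn was lower in unimpaired than in young rats by -0.53 ± 0.09 (limma adjusted p = 0.0121, 6 of 6 arrays) and over all aged rats by -0.36 ± 0.08 (limma adjusted p = 0.0219, 12 of 13 arrays). The call over all aged rats was lost without young replicate 6, at -0.35 (limma adjusted p = 0.0577), without young replicate 9, at -0.32 (limma adjusted p = 0.0566), and without the 4 meningeal-high arrays, at -0.37 (limma adjusted p = 0.0837). It was also lost with no filter on level (limma adjusted p = 0.0534), with array weights (0.0502), with each age as 1 group in the fit (0.0848) and with the replicate block (0.101), which lost the unimpaired call too (0.0863).

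Of 12 measured MAP kinases and their activating kinases, Mapk4, an atypical MAP kinase, was the 1 that passed. Its values were 8.53, 8.74 and 8.92 in aged impaired, 8.34, 8.56 and 8.75 in aged unimpaired and 7.99, 8.29 and 8.76 in young rats, and all groups overlapped. It was higher in impaired than in young rats by 0.44 ± 0.10 (limma adjusted p = 0.0434, 7 of 7 arrays) and over all aged rats by 0.34 ± 0.08 (limma adjusted p = 0.0434, 13 of 13 arrays). Leaving out 1 array lost these calls in 13 and 15 of 21 cases, at adjusted p values up to 0.0958 and 0.0968, and differences stayed between 0.40 and 0.50 and between 0.30 and 0.41. The impaired call was kept without impaired replicates 3, 4 or 6, unimpaired replicates 6, 7 or 8 or young replicates 1 or 5, and lost without any other array. The call over all aged rats was kept without impaired replicates 3 or 6, unimpaired replicates 7 or 8 or young replicates 1 or 5, and lost without any other array.

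Of 17 measured phosphatases from other branches of the superfamily, Ptp4a1, a small prenylated phosphatase also called PRL-1, was the 1 that passed. Its values were 10.47, 10.48 and 10.63 in aged impaired, 9.9996, 10.29 and 10.43 in aged unimpaired and 10.42, 10.52 and 10.75 in young rats, so that unimpaired and young arrays met at the edge. Ptp4a1 was lower in unimpaired than in young rats by -0.30 ± 0.06 (limma adjusted p = 0.0255, 6 of 6 arrays). The call was lost without unimpaired replicates 4 or 8, without young replicates 6 or 9 and without the 4 meningeal-high arrays, with differences of -0.29, -0.25, -0.29, -0.28 and -0.28. It was also lost with only unimpaired and young rats in the fit, at -0.30 (limma adjusted p = 0.0822), and with the replicate block, at -0.24 (limma adjusted p = 0.174).

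None of 6 Eph receptors, 11 cytoplasmic tyrosine kinases, 13 adaptors and substrates or 4 Sprouty and Spred inhibitors of ERK signalling passed in any comparison. The members of these lists with the smallest p over all aged rats were Epha5 at -0.22 ± 0.11, Fyn, a Src-family kinase, at -0.12 ± 0.05, Gab1, an adaptor of Ptpn11, at -0.14 ± 0.06 and Spry3 at 0.29 ± 0.09 (limma adjusted p = 0.127).

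Of 13 markers of progenitors and immature neurons, 6 were measured, and Dcx, Sox11, Nes, Eomes, Calb2, Igfbpl1 and Draxin were not. Their array mean ranged from 9.84 to 10.03 in aged impaired, 9.78 to 9.94 in aged unimpaired and 10.08 to 10.38 in young rats, and their summed level from 12.9 to 13.1, 12.9 to 13.0 and 13.1 to 13.4 on the log2 scale. In impaired rats Sox4, Nrep and Tubb2b passed lower than in young rats, at -0.56 ± 0.11, -0.36 ± 0.08 and -0.51 ± 0.07, and in unimpaired rats Tubb3, Nrep and Tubb2b passed lower, at -0.19 ± 0.05, -0.47 ± 0.08 and -0.51 ± 0.07. Beside them, 0.514% of all tested probe sets passed in either direction in impaired rats, and 0.936% passed lower in unimpaired rats. The part of progenitors and immature neurons in the Ptpro values was not tested. The meningeal list, with Igf2 and Igfbp2 measured of 12 genes, ranged from 5.14 to 8.55 in aged impaired, 5.08 to 5.58 in aged unimpaired and 5.64 to 6.90 in young rats. Without the 4 meningeal-high arrays Ptpro differed from young rats by -0.86 in impaired (limma adjusted p = 0.277), -1.17 in unimpaired (limma adjusted p = 0.0313) and -1.02 in all aged rats (limma adjusted p = 0.0381).

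**Figure D5:**
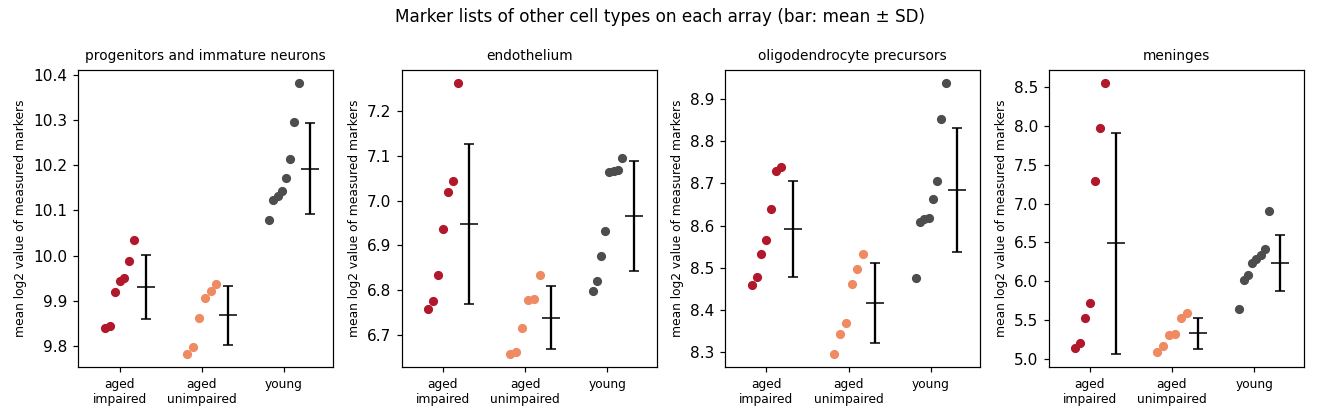
Mean log2 value of the measured markers (y axis) of progenitors and immature neurons, endothelium, oligodendrocyte precursors and meninges on each array (1 point each) in aged impaired, aged unimpaired and young rats (x axis), with bars for mean ± SD. Progenitor and immature neuron markers lie below the young arrays in both aged groups, and 3 impaired arrays stand above all others in the meningeal panel.

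Microglial and leukocyte markers, 11 of 14 measured, had array means of 7.87 to 8.37 in aged impaired, 7.94 to 8.17 in aged unimpaired and 7.70 to 8.20 in young rats, and Cx3cr1, Itgam and Cd68 were not measured. Over all aged rats 11 of 11 were positive against young rats, with a median of 0.20, and 2 passed higher, C1qa at 0.45 ± 0.10 and Fcer1g at 0.38 ± 0.09. C1qa also passed higher in unimpaired rats, at 0.49 ± 0.12. Among all tested probe sets 0.402% passed higher over all aged rats, where 56.8% of differences were negative. Of 8 astrocyte markers only Gfap passed, higher at 0.43 ± 0.09 in impaired and 0.40 ± 0.08 in all aged rats against young rats. In impaired rats 0.514% of all tested probe sets passed in either direction. Differences of the 8 markers were negative in 4 in impaired and in 6 in all aged rats, with medians of -0.005 and -0.05. The part of microglia, leukocytes and astrocytes in the phosphatase values was not tested.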

How the data were processed

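Log2 probe set values were deposited by the authors, who made them with GCRMA per the submitters' processing notes, whose version is not given in the sources used here. GCRMA corrects background from probe sequence and scales arrays to a common distribution, which can hide a change shared by most transcripts. A shared shift still remained among the tested probe sets. Differences were negative in 66.0% of them in unimpaired minus young and in 27.6% in impaired minus unimpaired rats, so small differences of unimpaired rats depend on the scaling. Of 24 labelled arrays, 3 columns are empty and 21 were used. The number of arrays limits the precision.

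Of 31099 probe sets, 57 were controls, and 15177 of the other 31042 had a log2 value above 4 on at least 6 arrays and were tested. The 3 groups were fitted together by lmFit and eBayes of limma 3.58.1 (R 4.3.3, 18 residual degrees of freedom), with Benjamini-Hochberg adjustment over all tested probe sets and a threshold of 0.05. Tested on simulated data for impaired minus young rats over 15177 probe sets, the fit recovered 85 of 100 changes of 0.5 and 99 of 100 changes of 1 on the log2 scale. Exact permutation tests used scipy 1.17.1. Symbols came from the platform annotation, and all 55 gene identifiers matched RefSeq.

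Described were Ptpro, each member that passed and the 6 members with the smallest p in each comparison. Of the lists described, each gene that passed, or else that with the smallest p over all aged rats, was named, the meningeal list by its measured genes. The interneuron, choroid plexus and erythrocyte lists had 0 genes that passed, and their genes with the smallest p over all aged rats were Pvalb at 0.13 ± 0.07, Ttr at -0.10 ± 0.88 and Hbb at -0.18 ± 0.19. Ttr was high on single arrays, at 10.8 in young replicate 2, 10.1 in aged impaired replicate 7 and 9.43 in aged unimpaired replicate 3. It was 7.28 in aged impaired replicate 3 and at most 5.49 on the other arrays. No alternative left all of these arrays out together. The members, lists and rules were chosen with earlier results of these data known. A count such as 7 of 7 arrays gives the arrays of the first group on that side of the second group's mean.

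Alternatives were no filter or a filter at 6, median centring, quantile normalization, other limma settings, another probe set per gene, a replicate block, leaving out the 4 meningeal-high arrays and leaving out each array in turn. One family gene is not reported here.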

Additional observations from a re-analysis of the deposited data

Results flagged for a closer look

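In 5 of 57 groups of arrays examined (8.77%), 1 array stood far from the rest of its group by Dixon's criterion, which chance meets in about 1 of 20 groups. Aged impaired replicate 6 had the highest Ptprr value of its group, 8.91 against 8.63 in the next array. Aged impaired replicate 8 had the highest Ptp4a1 value, 10.63 against 10.5 in the next array. Aged unimpaired replicate 8 had the lowest value of the second Ptprj probe set, 5.48 against 8.64 in the next array. Aged unimpaired replicate 3 had the lowest Tek value, 5.49 against 5.78 in the next array. Young replicate 5 had the lowest Dusp6 value, 7.85 against 8.24 in the next array.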

How the results depend on the processing

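The members called in aged impaired against young rats, 0 in the main analysis, numbered 1 with median centring, quantile normalization or array weights, and 0 to 2 when 1 array was left out, with 1 without aged unimpaired replicate 8 and 2 without young replicate 5. In aged unimpaired against young rats the 2 members became 1 with no filter on level or with only the groups of the comparison in the fit, and 1 to 3 when 1 array was left out, with 1 without young replicate 6 or 9. Over all aged rats 1 member became 2 with array weights or without the 4 meningeal-high arrays, and 1 to 3 when 1 array was left out, with 2 without aged unimpaired replicate 4 and 3 without young replicate 5. Between impaired and unimpaired rats 0 members passed under every alternative run.

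Ptpro in aged impaired against young rats passed with median centring (-0.91, adjusted p = 0.0463), quantile normalization (-0.92, adjusted p = 0.0493) and array weights (-0.88, adjusted p = 0.0330), and lay between -0.99 and -0.82 when 1 array was left out. Ptpro in aged unimpaired against young rats missed the threshold with no filter on level (-1.09, adjusted p = 0.0643), where more probe sets were tested, and with only the groups of the comparison in the fit (-1.09, adjusted p = 0.0645), where fewer arrays entered. It lay between -1.18 and -0.86 when 1 array was left out. Over all aged rats Ptpro passed in every alternative run, at -1.02 to -0.88 and, with 1 array left out, at -1.08 to -0.88. Impaired minus unimpaired rats gave -0.042 to 0.27 for Ptpro with 1 array left out, and the value without aged unimpaired replicate 8 was -0.042, the 1 change of direction. The cause of these changes was otherwise not tested.

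With the replicate number as a block, 0 members were called in unimpaired against young rats, Ptpro gave -0.97 (adjusted p = 0.102) and Ptprn2 -0.27 (adjusted p = 0.0863). The labels do not state whether equal replicate numbers pair arrays across groups. Same-numbered arrays of different groups correlated at -0.12 to 0.20 over 17 pairs, and other pairs at -0.19 to 0.19 over 129. The medians were -0.011 and -0.0036, and 7 of 21 arrays correlated best with their own number. How many would do so by chance was not worked out, so these values do not settle whether the block was needed. Over all probe sets, calls in all aged against young rats were 61 higher and 107 lower, against 116 and 87 with median centring and 124 and 108 after quantile normalization. In unimpaired against young rats they were 30 and 142, against 62 and 53 and 64 and 61, and in impaired against young rats 47 and 31, against 56 and 44 and 56 and 56. Of 810 further values for single genes, 752 kept their direction and their side of the threshold, 49 lost and 9 gained a call, and 0 changed direction. These values belong to 27 results chosen because they passed or had a small p, so that choice favours a stable direction. Over all 37 members, negative impaired minus unimpaired differences numbered 6, against 18 with median centring and 21 after quantile normalization. Ptpro has 1 probe set, so another could not be tried.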
